A study of Mus musculus with 2 samples.

Results

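Cycling endocrine cells were looked for in 2 droplet-based single-cell RNA-Seq libraries of mouse islets, each a single pool of islet cells from 4 mice. Both pools came from C57BL/6N mice at 8 weeks of age. The WT pool came from wildtype mice and the GKO pool from littermates with a germline ghrelin knockout, both fed standard chow. Islets were picked by hand and dispersed, and live single cells were sorted before capture, so that every share below is of cells that passed dispersal and sorting, with no stated enrichment for dividing cells. Counts are unique molecular identifiers (UMIs), each standing for 1 captured transcript. The WT library held 158067110 UMIs in 7792 barcodes (median 13934 per barcode), and the GKO library held 103511757 UMIs in 7289 barcodes (median 10521). Ghrl had 43634 UMIs in WT and 280 in GKO.

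Members were chosen by their measured UMIs. A member needed 500 or more detected genes, no more than 10% of UMIs from mitochondrial genes and at least 10% from the 5 hormone genes Ins1, Ins2, Gcg, Sst and Ppy, together with 5 or more UMIs summed over 8 rule genes, namely Mki67, Top2a, Cdk1, Ube2c, Cenpf, Pbk, Hmmr and Spc25. Each barcode was assigned to its leading hormone, and endocrine barcodes with fewer than 5 rule UMIs served as the noncycling barcodes of that hormone. Of 13446 barcodes that passed the limits on genes and mitochondrial UMIs, 9587 were endocrine and 1176 were members, 829 of 5545 endocrine barcodes in WT and 347 of 4042 in GKO. The barcode lists of both libraries shared 18 barcodes. None of these was a member in both libraries, and 4 members had a barcode that also occurred in the other library. With 1 library per genotype no test between genotypes was possible, and the 95% intervals below express counting error alone and leave out variation among mice and captures. Intervals of summed UMIs also leave out the spread among barcodes.

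In a dividing cell, DNA is copied in S phase by replication proteins, and the chromosomes are then condensed, attached to the spindle and pulled apart in mitosis. Mki67, Top2a, Cdk1, Ube2c, Cenpf, Pbk and Hmmr are transcribed mostly from late S phase to mitosis, whereas Spc25 encodes a subunit of the Ndc80 complex, which ties spindle microtubules to the kinetochore and is made of Ndc80, Nuf2, Spc24 and Spc25. β Cells of adult mice divide rarely, and replication of existing β cells is known as the main source of new ones after birth.

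The label of cycling cells was met by a minority of the members. Of the 829 WT members, 642 (77.4%) had no UMI of the 7 rule genes other than Spc25, and 83 more had 1 to 4. In GKO, 264 of 347 members (76.1%) had none and 37 had 1 to 4. Spc25 gave 49.4% of all rule UMIs in WT members and 47.3% in GKO members. It was detected in 824 of 829 and 342 of 347 members, whereas Mki67, the gene of the proliferation antigen Ki67, was detected in 117 (14.1%) and 49 (14.1%). The members were therefore described in 2 classes, a division chosen after these values had been seen. The first class, called 7-gene members here, held at least 5 UMIs of the 7 genes other than Spc25 and comprised 104 WT and 46 GKO barcodes. The second class, members that need Spc25, held fewer than 5 and comprised 725 WT and 301 GKO barcodes.

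In the 7-gene members the remaining rule genes were present together, which the class was chosen for and which is given here as a description. Mki67 was detected in 97 of 104 WT and 39 of 46 GKO barcodes, Top2a, the topoisomerase of mitotic chromosomes, in 90 and 38, and Cdk1, the kinase that starts mitosis, in 88 and 37. Ube2c, the enzyme that marks cyclin B for destruction, was detected in 79 and 30, Cenpf in 88 and 38, Pbk in 87 and 35, Hmmr in 79 and 33 and Spc25 in 99 and 41. The sum of the 7 genes ranged from 5 to 306 UMIs in WT (median 62) and from 5 to 193 in GKO (median 56), and 65 WT and 26 GKO barcodes had 30 or more. Around the rule's threshold the picture was different. At 4 rule UMIs, just outside, lay 243 WT and 135 GKO barcodes, and 89.3% and 91.9% of these held Spc25 alone. At 5 rule UMIs, just inside, lay 201 and 93 barcodes, and 90.0% and 90.3% held Spc25 alone.

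**Figure D1:**
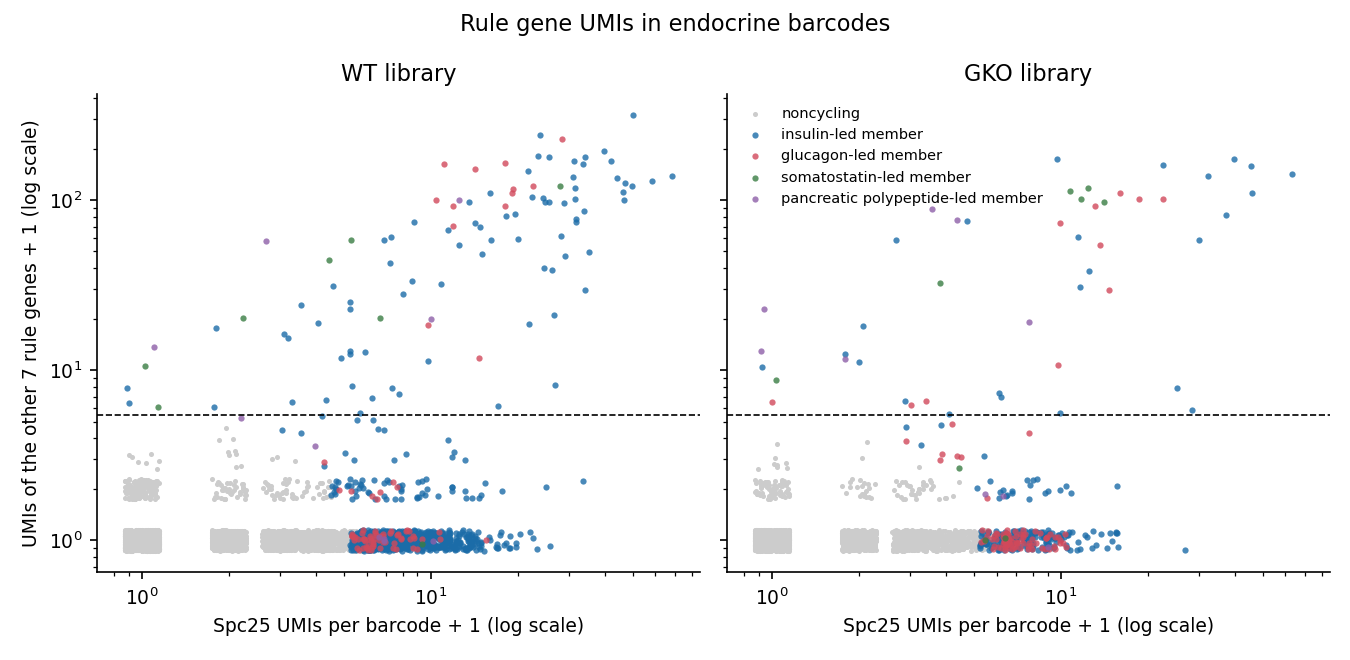
Each point is an endocrine barcode, with its Spc25 UMIs plus 1 on the horizontal log axis and its UMIs of the other 7 rule genes plus 1 on the vertical log axis, with a small random shift to separate overlapping points, for WT (left) and GKO (right). Colored members above the dashed line are the 104 WT and 46 GKO barcodes with at least 5 UMIs of the 7 genes, and most other members lie along the bottom, where 642 WT and 264 GKO members had Spc25 but no UMI of the 7.

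The promoters of rule genes are printed because the rule rests on their transcription together. Genes of mitosis are known to share a TTTGAA element, the core of the cell cycle homology region, and CCAAT boxes. Sequences are from RefSeq on GRCm38.p6, from 250 bases before to 50 bases after the start site. They are written 5′ to 3′ on the strand of the gene, and capitals mark the element TTTGAA (which reads TTCAAA on the opposite strand), the box CCAAT (which reads ATTGG there) or an E2F-like octamer. The promoter of Spc25 lies at chr2:69206164-69206463 (minus strand), that of Cdk1 at chr10:69352863-69353162 (minus strand) and that of Ube2c at chr2:164769679-164769978 (plus strand).
Spc25: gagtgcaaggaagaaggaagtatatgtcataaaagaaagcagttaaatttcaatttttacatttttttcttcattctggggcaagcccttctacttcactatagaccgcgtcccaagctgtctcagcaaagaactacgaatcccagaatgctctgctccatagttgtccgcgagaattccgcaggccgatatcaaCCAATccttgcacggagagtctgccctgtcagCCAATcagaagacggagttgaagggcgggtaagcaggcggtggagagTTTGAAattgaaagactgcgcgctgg
Cdk1: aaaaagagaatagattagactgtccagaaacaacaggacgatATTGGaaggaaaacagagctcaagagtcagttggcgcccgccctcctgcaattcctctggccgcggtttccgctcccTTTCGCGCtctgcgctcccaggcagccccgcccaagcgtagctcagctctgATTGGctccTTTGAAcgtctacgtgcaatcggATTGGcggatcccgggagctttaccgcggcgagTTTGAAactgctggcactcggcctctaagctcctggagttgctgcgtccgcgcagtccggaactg
Ube2c: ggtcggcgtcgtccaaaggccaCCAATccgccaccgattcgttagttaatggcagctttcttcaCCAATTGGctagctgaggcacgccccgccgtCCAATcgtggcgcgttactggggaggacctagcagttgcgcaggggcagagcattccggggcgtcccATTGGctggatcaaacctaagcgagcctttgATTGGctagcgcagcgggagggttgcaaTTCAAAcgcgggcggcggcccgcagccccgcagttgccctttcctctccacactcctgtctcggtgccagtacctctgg

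The Spc25 promoter held 1 TTTGAA and 2 CCAAT, the Cdk1 promoter 2 and 3 with 1 E2F-like octamer, and the Ube2c promoter 1 and 6, of which 2 overlap in CCAATTGG. The same letters were searched on both strands in the promoters of the G2 and mitosis genes together with the rule genes, where 61 of 73 genes matched and gave 66 promoters. TTTGAA occurred in 68.2% of these promoters and in 17.9% of all 32851 mouse promoters of this length. CCAAT occurred in 75.8% against 37.4%, both motifs in 57.6% against 6.95%, and an E2F-like octamer (written TTTGGCGC, otherwise TTTCCCGC, otherwise TTTGCCGC, otherwise TTTCGCGC) in 7.58% against 2.26%. Of the S phase genes 38 of 50 matched a promoter, too few of the list for such a check, which is void for that list, and its shares are not given. A match of letters is a description and does not show that a factor binds.

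Spc25 was detected in most insulin-led barcodes that held no UMI of the 7 other rule genes, a class chosen without Spc25 itself. Among 2023 such WT barcodes, 1628 (80.5%, 95% interval 78.7 to 82.2) had an Spc25 UMI, at 87.9 counts per 1000000 UMIs (CPM), and in GKO 73.9% had one, at 74.0 CPM. Glucagon-led barcodes without the 7 genes stood at 97.4 CPM in WT and 94.5 CPM in GKO. Somatostatin-led and pancreatic polypeptide-led barcodes were far lower. Somatostatin-led barcodes had 5.49 and 5.79 CPM, pancreatic polypeptide-led barcodes 8.76 and 6.08 CPM, and barcodes with under 10% hormone UMIs 6.04 and 3.83 CPM. The part of free RNA from droplets in these low levels was not tested. In barcodes with under 10% hormone UMIs Spc25 was seen in 3.28% and 2.08%. Their median depth was 7629 UMIs in WT against 36649 in insulin-led barcodes. After every endocrine barcode was thinned to 5000 UMIs, with 42 WT and 31 GKO barcodes left out as shallower, an Spc25 UMI remained in 32.4% of insulin-led, 33.9% of glucagon-led, 2.28% of somatostatin-led and 3.40% of pancreatic polypeptide-led barcodes in WT, and in 25.8%, 33.8%, 2.49% and 4.22% in GKO. At 5000 UMIs in total, hormones included, the WT share was thus no higher in insulin-led than in glucagon-led barcodes. Hormone genes took a median of 61.4% of UMIs in insulin-led and 27.3% in glucagon-led noncycling WT barcodes, so that their other RNA was not matched. At full depth insulin-led barcodes gave most members.

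The partners of Spc25 were low in the same barcodes. In insulin-led barcodes without the 7 genes Spc24 stood at 1.44 CPM in WT and 1.91 CPM in GKO, Ndc80 at 0.0766 and 0.0340 CPM, and Nuf2 at 0.204 and 0.0681 CPM. Glucagon-led barcodes without the 7 genes had Spc24 at 2.47 and 2.16 CPM. Members that need Spc25 overlap with the barcodes without the 7 genes (575 of 649 insulin-led ones in WT and 180 of 206 in GKO had none of the 7), so that they are set against noncycling barcodes instead, with which they share none. Insulin-led members that need Spc25 had Spc24 at 2.05 against 1.33 CPM in WT and 2.95 against 1.88 CPM in GKO. Glucagon-led ones had 4.21 against 2.27 CPM in WT, from 6 UMIs, and 8.63 (95% interval 4.72 to 14.5) against 1.91 CPM in GKO, from 14 UMIs. Ndc80 rested on 1 to 3 UMIs in each of these 4 groups of members. In insulin-led 7-gene members all 4 subunits were higher. Spc24 reached 109 CPM in WT and 116 CPM in GKO, Ndc80 30.0 and 23.7 CPM, Nuf2 22.0 and 20.8 CPM, and Spc25 378 and 415 CPM. Barcodes with under 10% hormone UMIs and at least 5 UMIs of the 7 genes held Spc24 at 163 and 193 CPM and Spc25 at 99.3 and 98.4 CPM.

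Spc25 lies at chr2:69193895-69206194 on the minus strand of GRCm38, and G6pc2, which encodes the islet glucose-6-phosphatase subunit, lies at chr2:69211073-69227841 on the plus strand, with 4878 bases between them. Among barcodes without the 7 genes, G6pc2 stood at 523 CPM in WT and 369.8 CPM in GKO in insulin-led barcodes. In glucagon-led barcodes it stood at 17.4 and 16.2 CPM, with Spc25 at 97.4 and 94.5 CPM. Hormone UMIs are part of these totals and take a larger share in insulin-led barcodes, so that small gaps between hormones are not read. In insulin-led 7-gene members G6pc2 was lower, at 302 and 226 CPM, while Spc25 was higher. In insulin-led members that need Spc25, which the rule picks by their Spc25 UMIs, G6pc2 stood at 591 and 438 CPM, against 485 and 341 CPM in insulin-led noncycling barcodes.

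**Figure D2:**
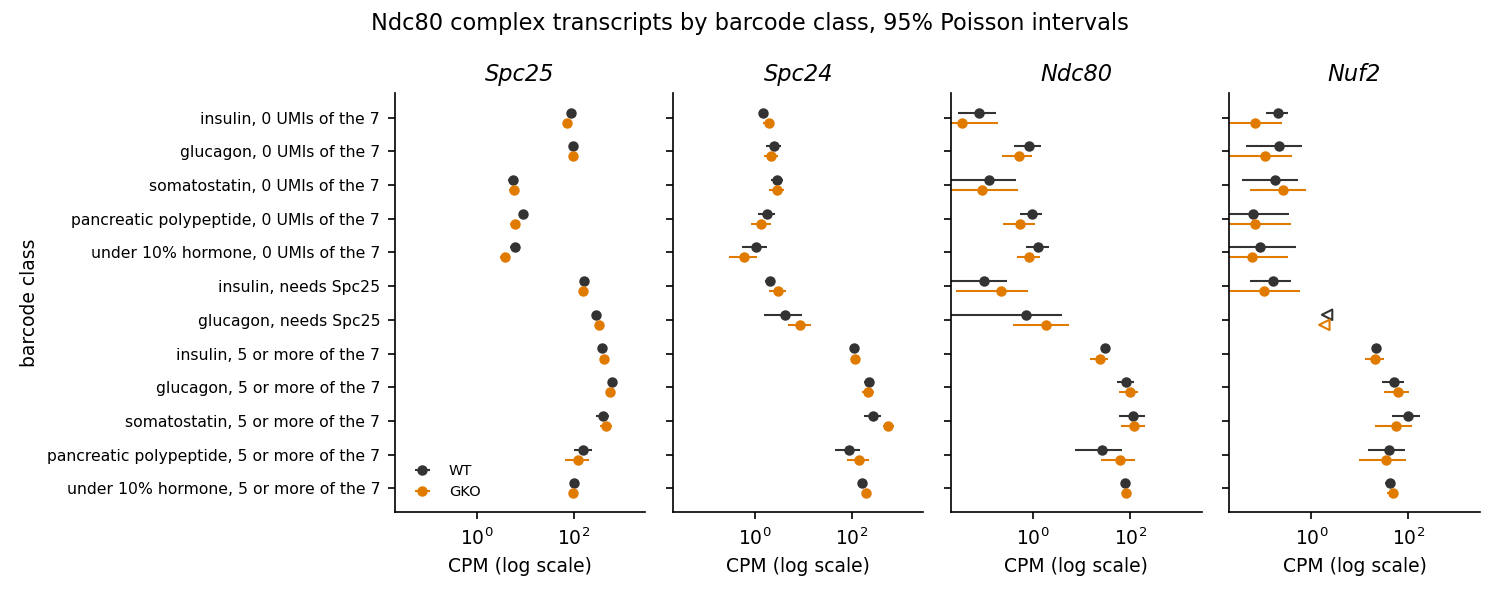
CPM on a log axis of the 4 Ndc80 complex subunits (panels) in each class of barcode (rows), in WT (dark) and GKO (orange), with 95% Poisson intervals for counting error and open triangles at the level of 3 UMIs where none was seen. Spc25 alone was high in insulin-led and glucagon-led barcodes without UMIs of the 7 genes (74.0 to 97.4 CPM), and all 4 subunits were high in barcodes with at least 5 UMIs of the 7.

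By the rule as given, members made up 32.1% of insulin-led barcodes in WT (728 of 2266, 95% interval 30.2 to 34.1) and 26.1% in GKO (229 of 876, 23.3 to 29.2), with a ratio of GKO to WT of 0.814 (0.698 to 0.945), which was 0.509 at 10 or more rule UMIs. Glucagon-led barcodes gave 7.72% (83 of 1075) and 7.04% (100 of 1420), somatostatin-led barcodes 0.545% (8 of 1468) and 0.851% (9 of 1057), and pancreatic polypeptide-led barcodes 1.36% (10 of 736) and 1.31% (9 of 689). The 7-gene members were a far smaller share. They made up 3.49% of insulin-led barcodes in WT (79 barcodes, 2.77 to 4.33) and 2.63% in GKO (23 barcodes, 1.67 to 3.91), and the interval of their ratio, 0.753, ran from 0.452 to 1.21. Glucagon-led 7-gene members were 13 (1.21%) in WT and 11 (0.775%) in GKO, somatostatin-led ones 7 (0.477%) and 6 (0.568%), and pancreatic polypeptide-led ones 5 (0.679%) and 6 (0.871%). In each of the 4 hormone classes the interval of the ratio of GKO to WT included 1. Over all endocrine barcodes the 7-gene share was 1.88% in WT and 1.14% in GKO (ratio 0.607, 0.419 to 0.866), but insulin-led barcodes were 2266 of 5545 endocrine barcodes in WT and 876 of 4042 in GKO, so that this ratio also carries the difference in hormone classes. Barcodes with under 10% hormone UMIs and at least 5 UMIs of the 7 genes were likewise fewer in GKO, 68 of 2304 (2.95%) against 75 of 1555 (4.82%).

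Depth differed between hormone classes, and shares were therefore also taken after thinning to 5000 UMIs with a threshold of 2 UMIs of the 7 genes, a threshold chosen after the data were seen. Under this count 2.57% of insulin-led barcodes passed in WT and 2.29% in GKO, 1.22% and 0.712% of glucagon-led, 0.553% and 0.575% of somatostatin-led, and 0.680% and 0.873% of pancreatic polypeptide-led barcodes. Insulin-led barcodes kept the highest share in both libraries.

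**Figure D3:**
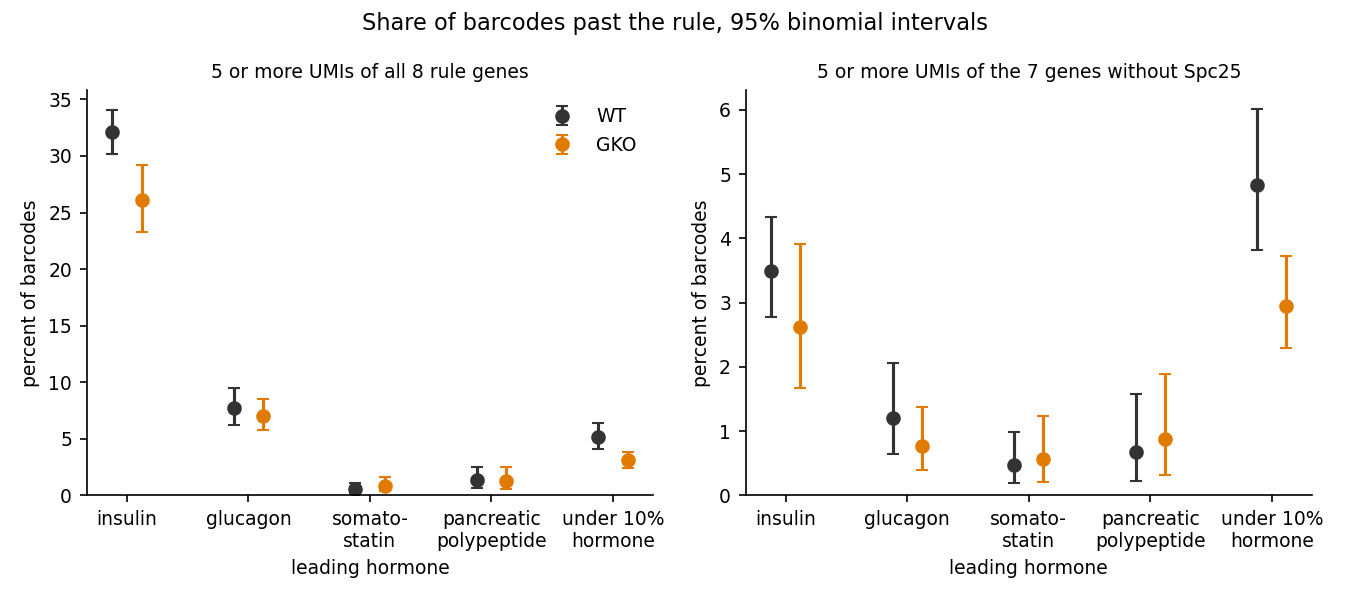
Percent of barcodes of each leading hormone past the rule with all 8 genes (left) and with the 7 genes other than Spc25 (right), with 95% binomial intervals for counting error, in WT (dark) and GKO (orange). The insulin-led share falls from 32.1% and 26.1% to 3.49% and 2.63% when Spc25 is left out, whereas the somatostatin-led and pancreatic polypeptide-led shares stay at or under 1.36% in both panels.

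The 7-gene members were then set against the noncycling barcodes of the same hormones, weighted by the UMIs that members of each hormone hold. A log2 ratio of at least 1 in size, a 2-fold change, was the limit used in place of a test. A gene was used when the mean of its UMIs in the members and its UMIs expected there from the noncycling level was at least 10 in each library. Genes nearly absent from noncycling barcodes could pass only where they were high in the members, so that counts and medians of the higher genes describe the genes used and support nothing further. Of 8329 genes used, 740 (8.88%) were past 2-fold higher in WT and 814 (9.77%) in GKO, and 623 (7.48%) were so in both. In the other direction 53 (0.636%) were past 2-fold lower in WT, 76 (0.912%) in GKO and 13 (0.156%) in both. With 10 UMIs expected from the noncycling barcodes alone, a filter added after these values were seen, 7617 genes were used, of which 274 (3.6%) were past 2-fold higher and 13 (0.171%) lower in both libraries. Against noncycling barcodes with 0 rule UMIs 558 were higher and 43 lower in both. The median log2 ratio of all genes used was 0.16 in WT and 0.20 in GKO. A pseudocount of 0.5 UMIs was added to both sides of each ratio, which understates the ratio of genes that noncycling barcodes nearly lack.

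Genes of G2 and mitosis that were used stood past 2-fold higher with 1 exception. Of 65 genes in this list 63 were used, and 62 were past 2-fold higher in each library, with a median log2 ratio of 6.54 in WT and 6.00 in GKO. By the noncycling level alone 12 were used, with 11 past 2-fold higher in each library and medians of 2.14 and 2.19. The list sum was 4790.2 CPM against 297 CPM in noncycling WT barcodes and 5733 against 358 CPM in GKO. Hmgb2, a chromatin protein that rises before mitosis, stood at 504 CPM against 11.6 in WT and 601 against 14.7 in GKO (log2 ratio 5.43 in WT and 5.32 in GKO), and was detected in 98 of 104 and 39 of 46 barcodes. Among the genes of chromosome condensation, Smc4 had log2 ratios of 4.01 in WT and 3.72 in GKO and Smc2 of 5.40 in WT and 4.90 in GKO. Among the spindle and kinetochore genes, Tpx2 stood at 88.9 CPM in WT and 88.3 CPM in GKO, with log2 ratios of 8.73 in WT and 7.34 in GKO. Spc24 had log2 ratios of 6.25 in WT and 6.20 in GKO, whereas Spc25 itself had 3.09 in WT and 3.33 in GKO, from 45.4 and 40.9 CPM in noncycling barcodes. Cyclin B genes and their partners moved likewise, with Ccnb2 at 80.4 against 0.0639 CPM in WT and 90.4 against 0.0706 CPM in GKO, and Cks2 at log2 ratios of 6.93 in WT and 6.91 in GKO. Kif2c had no UMI in any noncycling GKO barcode, and counting it at 3 UMIs over that group gave an at least 369-fold higher level and a list median of 6.03. The exception was Pttg1, the securin gene, at 13.3 against 10.6 CPM in WT and 13.8 against 13.7 CPM in GKO.

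Replication genes were higher as well. In the S phase list 41 of 50 genes were used, 39 in WT and 40 in GKO were past 2-fold higher, and the medians were 3.59 and 3.68. By the noncycling level alone 12 were used, 10 in WT and 11 in GKO were past 2-fold higher, and the medians were 2.14 and 2.16, close to those of the G2 and mitosis genes under that filter. Dut, which removes dUTP from the nucleotide pool, had the largest UMI sum of the list, 211 against 45.9 CPM in WT and 268 against 55.9 CPM in GKO, and was detected in 101 of 104 and 46 of 46 barcodes. Pcna, the sliding clamp of the replication fork, stood at 54.0 against 6.28 CPM and 71.8 against 8.01 CPM (log2 ratio 3.08 in WT and 3.11 in GKO). Of the enzymes that supply nucleotides, Tyms had log2 ratios of 3.70 in WT and 4.07 in GKO and Rrm2 of 5.05 in WT and 5.78 in GKO. Of the helicase subunits, Mcm3 had 5.37 in WT and 4.31 in GKO and Mcm6 2.93 in WT and 2.27 in GKO. Rfc2, a clamp loader subunit, was already at 21.7 and 26.4 CPM in noncycling barcodes and had ratios of 1.81 in WT and 1.96 in GKO.

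All 18 chromatin and cytoskeleton genes of dividing cells were used, and 17 were past 2-fold higher in both libraries, with medians of 2.35 in WT and 2.55 in GKO. Stmn1, which encodes the microtubule-destabilizing protein stathmin, separated the classes most in this list. It stood at 975 CPM against 4.64 in WT and 1366 against 5.49 in GKO, and was detected in 103 of 104 and 45 of 46 7-gene members. H2afz, a histone variant, had log2 ratios of 3.01 in WT and 3.04 in GKO, Tubb5, a β tubulin, 3.90 in WT and 3.91 in GKO, and Ptma 1.53 in WT and 1.54 in GKO. Set was the member of the list under 2-fold, at 0.68 in WT and 0.63 in GKO.

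Cyclins, kinases and inhibitors moved less evenly. Of 22 genes used, 15 in WT and 16 in GKO were past 2-fold higher and none was past 2-fold lower, with medians of 1.51 and 1.69. By the noncycling level alone 12 were used, 5 in WT and 6 in GKO were past 2-fold higher, and the medians were 0.82 and 0.68. The D cyclins that islet cells are known to rely on were not among those higher. Ccnd2 stood at 395 against 503 CPM in WT and 415 against 554 CPM in GKO (log2 ratio −0.35 in WT and −0.42 in GKO), and Ccnd1 had −0.29 in WT and −0.25 in GKO. Their kinase gene Cdk4 had 1.11 in WT and 1.08 in GKO and Ccne2, the S phase cyclin E gene, 3.08 in WT and 3.04 in GKO. Foxm1, the transcription factor of mitotic genes, stood at 25.1 and 33.8 CPM with 0.103 and 0.219 CPM in noncycling barcodes. Inhibitor genes were higher as well. Cdkn2c, which encodes p18, had log2 ratios of 4.32 in WT and 4.01 in GKO, Cdkn2d, which encodes p19, 3.31 in WT and 3.48 in GKO, and Cdkn1a, which encodes p21, 1.36 in WT and 1.48 in GKO, whereas Cdkn1b, which encodes p27, had 0.65 in WT and 0.31 in GKO. Of the 10 p53 target genes used, Cdkn1a was the one past 2-fold in both libraries and Aen passed in WT alone (1.13 against 0.20), and the median was 0.30 and 0.23.

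Endocrine identity genes stayed near the level of noncycling barcodes. Of 24 β identity genes used, 23 were within 2-fold in both libraries, and the median was −0.11 in WT and −0.12 in GKO. Iapp, the amyloid peptide stored with insulin, had log2 ratios of −0.08 in WT and −0.12 in GKO, and the zinc transporter gene Slc30a8 −0.31 in WT and −0.20 in GKO. The β cell transcription factor gene Pdx1 had 0.17 in WT and 0.47 in GKO and Nkx6-1 −0.45 in WT and −0.21 in GKO, with intervals that included 0 for Pdx1 in WT (−0.01 to 0.35) and for Nkx6-1 in GKO (−0.48 to 0.05). G6pc2 and the glucose transporter gene Slc2a2 were lower without reaching 2-fold, at −0.68 in WT and −0.60 in GKO and −0.50 in WT and −0.26 in GKO. The exception past 2-fold was Nnat, the imprinted neuronatin gene, at 83.0 against 28.2 CPM in WT and 112 against 35.9 CPM in GKO.

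Genes of the secretory granule were mostly lower by less than 2-fold. All 19 were used and the median was −0.37 in WT and −0.30 in GKO. Chga, which encodes the granule protein chromogranin A, stood at 3993 against 5959.7 CPM in WT (log2 ratio −0.58, −0.60 to −0.56) and 4248 against 6031 CPM in GKO (−0.51, −0.54 to −0.47). Pcsk2, the prohormone convertase of islet cells, had −0.37 in WT and −0.32 in GKO, and Scg2 had −0.01 in WT and 0.09 in GKO. Vgf, the gene of a granule peptide precursor, was the one gene past 2-fold, higher at 15.3 against 6.08 CPM and 25.5 against 7.21 CPM. Hormone UMIs are part of the rule for members and noncycling barcodes alike, so that the hormone shares are given as a description. Those of somatostatin-led and pancreatic polypeptide-led members rest on 5 to 7 barcodes a library. The share of UMIs taken by the leading hormone was lower in 7-gene members in each of 8 comparisons. Its median was 53.1% against 60.7% in insulin-led WT barcodes and 49.5% against 59.2% in GKO, and 21.3% against 24.8% and 24% against 26% in glucagon-led barcodes. For somatostatin the medians were 12.5% against 18% and 12% against 18%, and for pancreatic polypeptide 21.4% against 34.5% and 33.4% against 34.1%. The hormone shares are part of every CPM total. With the hormones left out of the total, the secretory sum of 7-gene members had log2 ratios of −0.53 in WT and −0.45 in GKO and the β identity sum −0.28 and −0.37, against −0.35 and −0.26 and −0.09 and −0.12 with them.

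The remaining lists, apart from those of other cell types given below, held few genes past 2-fold. Of 23 known regulators of β cell replication used, none was past 2-fold higher, and the medians were 0.03 and 0.06. Txnip, the glucose-induced inhibitor of thioredoxin, was past 2-fold lower in WT, at 96.6 against 218 CPM (−1.17, −1.31 to −1.04), and stood at 171 against 338 CPM in GKO (−0.98, −1.17 to −0.80). Gipr, the receptor of the incretin GIP, had −0.69 in WT and −1.08 in GKO and was past 2-fold in GKO. Prlr, the prolactin receptor gene, and Manf, the gene of a β cell survival factor, were within 2-fold, at −0.17 in WT and 0.10 in GKO and 0.24 in WT and 0.20 in GKO. Ribosome biogenesis genes were higher by small amounts, with medians of 0.56 and 0.65 and 3 of 14 genes past 2-fold in both libraries, namely Nop58 (1.26 in WT and 1.06 in GKO), Nop56 (1.20 in WT and 1.33 in GKO) and Nhp2 (1.22 in WT and 1.03 in GKO). Genes of folding in the endoplasmic reticulum had medians of 0.08 and 0.01 over 23 genes, with Hspa5 at 0.08 in WT and 0.06 in GKO, and Ddit3 past 2-fold in GKO (0.54 in WT and 1.46 in GKO). The 15 α identity genes used had medians of −0.09 and −0.13, with Wnk3 past 2-fold lower in GKO (−1.24). The amino acid transporter gene Slc38a5 was past 2-fold higher in both libraries, and in glucagon-led barcodes alone it stood at 442 against 112 CPM in WT and 311 against 97.5 CPM in GKO. The 9 δ identity genes had medians of −0.21 and 0.18, with none past 2-fold, and 6 genes of immature or disallowed expression in β cells had −0.24 and 0.02, with Npy lower in both (−2.18 in WT and −2.07 in GKO) and Neurog3 past 2-fold lower in WT.

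Outside the lists, the 10 genes with the largest rise common to both libraries included Hist1h1b, Mxd3, Esco2, 2810417H13Rik, Lockd, Aspm, Melk, Ska1 and Ankle1, with log2 ratios from 6.45 (Ankle1 in GKO) to 8.11 (Aspm in WT). Hist1h1b encodes a linker histone made with DNA, Esco2 a cohesin acetyltransferase, Aspm a spindle pole protein and Ska1 a kinetochore protein. Lockd, a noncoding RNA, had the most UMIs of them, at 227 against 1.82 CPM in WT and 161 against 1.10 CPM in GKO. The 10 largest falls, not all of them past 2-fold in both libraries, were Mgp, Cxcl13, Nupr1, Dcdc2a, Bgn, C3, Defb1, Vwa5b2, Baiap3 and Aldoa. Mgp, Cxcl13, Bgn and C3 are known from stromal cells and were seen in at most 9 of 104 WT and 4 of 46 GKO barcodes. With high doublet scores removed Bgn turned higher in WT (1.09) and C3 in GKO (0.0508), and C3 also did so in GKO (0.18) with barcodes of 1% or more UMIs of other cell types removed. Nupr1, a stress-response gene, had log2 ratios of −1.70 in WT and −1.47 in GKO. The glycolytic gene Aldoa stood at 73.4 against 149 CPM in WT and 92.5 against 180.2 CPM in GKO, short of 2-fold in GKO.

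**Figure D4:**
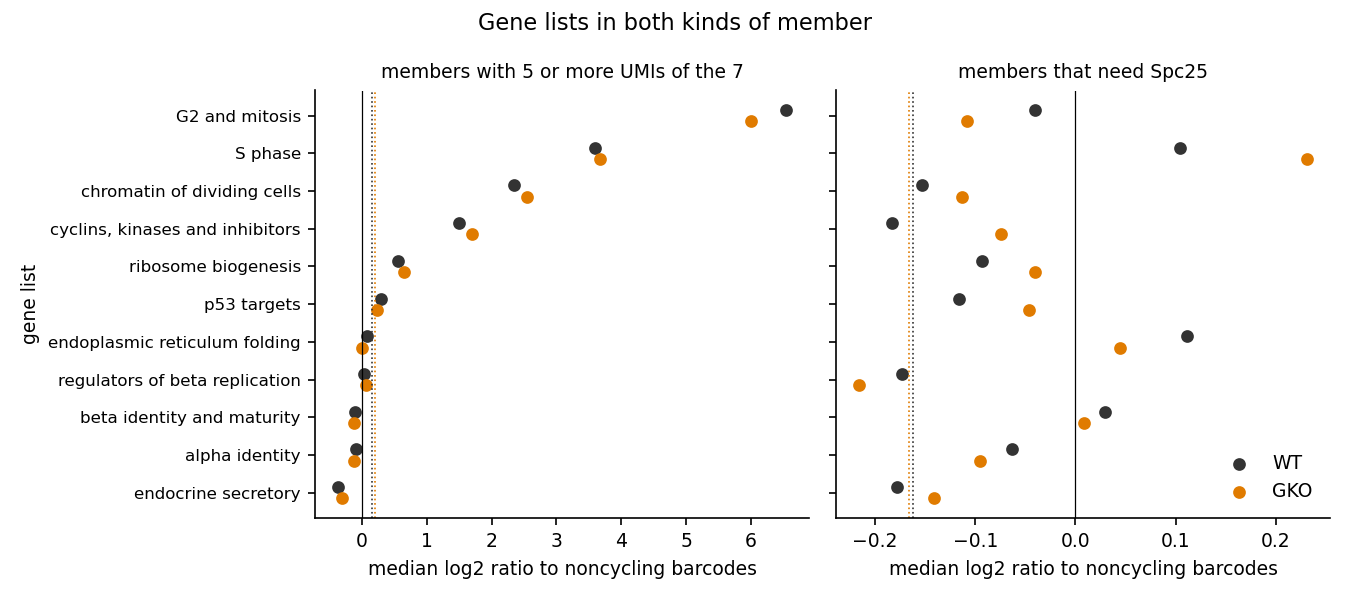
Median log2 ratio to noncycling barcodes of the genes used in each of 11 of the 21 lists (those of δ identity, immature or disallowed expression and other cell types are not drawn), for 7-gene members (left) and members that need Spc25 (right, on a narrower axis), in WT (dark) and GKO (orange), with dotted lines at the median of all genes used. In 7-gene members the medians run from 6.54 for G2 and mitosis to −0.37 for endocrine secretory genes in WT, and in members that need Spc25 all those drawn lie between −0.22 and 0.23.

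Insulin-led and glucagon-led 7-gene members were both higher in the G2 and mitosis list. The G2 and mitosis sum was 4025 CPM in the 79 insulin-led WT barcodes, against 272 CPM in noncycling ones, and 4060.5 against 299 CPM in GKO. In glucagon-led barcodes it was 12585 against 468 CPM in WT and 8479 against 512 CPM in GKO. Insulin takes a larger share of each total, so that levels are not compared between hormones, and the log2 ratios were 3.88 and 3.76 for insulin and 4.75 and 4.05 for glucagon. Immune genes summed to 969 against 234 CPM in WT and 1722 against 382 CPM in GKO in insulin-led barcodes. In glucagon-led barcodes they summed to 84.6 against 338 CPM in WT and 83.5 against 409 CPM in GKO. Over all hormones 5 barcodes held most of the immune UMIs of 7-gene members, and the sum in GKO turned lower with high doublet scores removed, as given with the other cell types below. Ccnd1 differed less in insulin-led than in glucagon-led barcodes, at −0.19 and −0.04 against −1.61 and −0.90, from 12 and 14 UMIs in the glucagon-led members. Somatostatin-led (7 and 6) and pancreatic polypeptide-led (5 and 6) 7-gene members had G2 and mitosis ratios of 4.24 and 4.69, and of 3.61 and 4.20.

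The 7-gene members covered a wide range of both phase lists. In WT the S phase list ran from 49.2 to 8366 CPM per barcode (median 1534) and the G2 and mitosis list from 209 to 24782 CPM (median 3862). In GKO they ran from 198 to 8671 CPM (median 1836) and from 284 to 30429 CPM (median 4189). The S phase sum exceeded the G2 and mitosis sum in 21 of 104 WT (20.2%) and 11 of 46 GKO barcodes (23.9%). It did so in 30.0% and 32.4% of noncycling barcodes and in 21.8% and 23.6% of members that need Spc25. Since 7 mitotic genes chose the 7-gene members, barcodes early in S phase could fall below the threshold. The same 7 genes split the classes, so that the gap in mitotic RNA follows in part from that choice and supports nothing further. No noncycling barcode and no member that needs Spc25 reached the median G2 and mitosis level of the 7-gene members in its library. Their median S phase level was reached by 21 of 4716 noncycling barcodes in WT and 18 of 3695 in GKO, and by 3 of 725 and 5 of 301 members that need Spc25. By hormone, the S phase sum was the larger in 15 of 79 insulin-led barcodes in WT and 3 of 23 in GKO, and in 2 of 13 and 6 of 11 glucagon-led barcodes.

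**Figure D5:**
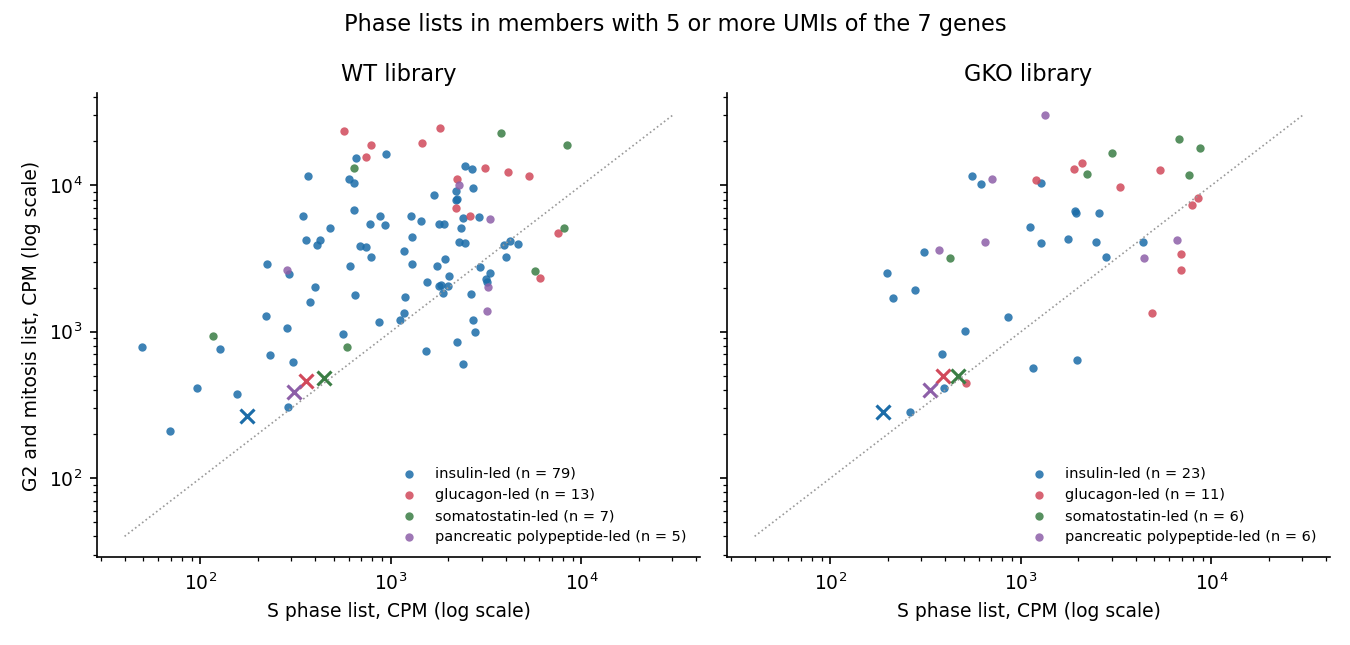
Each point is a 7-gene member, with its S phase list on the horizontal and its G2 and mitosis list on the vertical log axis, both in CPM, colored by leading hormone, for WT (left) and GKO (right), where crosses mark the median of noncycling barcodes and the dotted line marks equal sums. Most points lie above the line, with 21 of 104 in WT and 11 of 46 in GKO below it, of which 6 in GKO are glucagon-led.

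In members that need Spc25 the G2 and mitosis sum had log2 ratios of −0.09 in WT and −0.05 in GKO, and the S phase sum 0.02 and 0.17. Of 11975 genes used, 38 (0.317%) were past 2-fold higher in WT, 53 (0.443%) in GKO and 8 (0.0668%) in both, and 214 (1.79%) were past 2-fold lower in WT, 285 (2.38%) in GKO and 70 (0.585%) in both. Of the 11869 genes used by the noncycling level alone, 4 (0.0337%) were past 2-fold higher and 70 (0.59%) lower in both. The median log2 ratio of all genes was −0.16 in WT and −0.17 in GKO. None of 22 G2 and mitosis genes used was past 2-fold higher in either library, with list medians of −0.04 and −0.11. Hmgb2 stood at 8.45 against 10.1 CPM in WT and 10.8 against 12.3 CPM in GKO. Of 33 S phase genes used, 3 in WT and 4 in GKO were past 2-fold higher, with medians of 0.10 and 0.23. The helicase gene Hells was past 2-fold higher in both libraries, at 2.07 against 0.887 CPM in 47 of 725 WT barcodes and 3.82 against 1.23 CPM in 21 of 301 GKO barcodes. Spc24 had log2 ratios of 0.63 in WT and 0.97 in GKO. Stmn1 stood at 5.34 against 4.26 CPM in WT and at 13.2 against 4.63 CPM in GKO, where its UMIs came from 43 of 301 barcodes. Txnip was lower, as in 7-gene members, at −1.35 in WT and −1.08 in GKO, and Iapp was level at 0.01 in WT and 0.00 in GKO.

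The largest rises outside the lists in members that need Spc25 rested on few barcodes. They were named by size, and not all were past 2-fold in both libraries, where 8 genes passed with listed and rule genes included. Ccl12, Ccl8, Slc37a2, Cd209f, Lgals3 and Fcgr3, known from macrophages, were seen in 1 to 21 barcodes a library, and Igsf11, Kcnh5, Fam111a and Cnnm1 were at most 3.02 CPM. The largest falls, among them Ptger3, Cxcl13, Opcml, Dpep1, Ccl5, Mfap5, Pfkfb3, Aqp4 and Gm28523, were at most 4.87 CPM in these members, with Aqp4, a water channel gene, at 4.87 against 16.7 CPM in WT and 3.64 against 12.2 CPM in GKO. These members were deeper than noncycling barcodes, with medians of 44411 against 33734 UMIs in insulin-led WT barcodes and 45612 against 32811 in GKO, and the part of depth in their differences was not tested. Their β identity genes had medians of 0.03 and 0.01, whereas δ identity genes had −0.90 and −0.83. Acinar genes were past 2-fold lower in 10 of 10 cases in WT and in none in GKO, with medians of −1.85 and −0.37, and immune genes summed to 244 against 238 CPM in WT and 506 against 389.8 CPM in GKO. B and plasma cell genes summed to 10.6 against 38.7 CPM in WT and 188 against 35.8 CPM in GKO (log2 ratio −1.86 and 2.39). How many barcodes held that RNA is not given, and 7 of these 301 GKO members drew 1% or more of UMIs from other cell types. Stellate genes had medians of −0.54 and −2.38, and endothelial genes −1.07 and 0.04. The part of this RNA in the values of these members was not tested.

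By the rule as a whole, the 1176 members showed a mixture of both classes. Of 12396 genes used, 299 (2.41%) were past 2-fold higher in WT, 305 (2.46%) in GKO and 236 (1.9%) in both. Past 2-fold lower were 131 (1.06%) in WT, 222 (1.79%) in GKO and 49 (0.395%) in both. Against noncycling barcodes with 0 rule UMIs the lower genes, at 293, outnumbered the higher ones, at 279, in both libraries. The G2 and mitosis list had 54 of 64 genes past 2-fold higher in both libraries and medians of 4.13 and 4.21, and the S phase list 31 of 47 with medians of 1.43 and 1.60. Of the 12122 genes used by the noncycling level alone 86 (0.709%) were past 2-fold higher in both and 49 (0.404%) lower, and the higher ones included 12 of 22 G2 and mitosis genes. The rises outside the lists, Mxd3, Melk, Iqgap3, Esco2, Ska1, Kifc1, Kif4, Depdc1a, Ankle1 and Hist1h1b, are all known from dividing cells and were detected in at most 68 of 829 WT members. The falls included Ptger3, Opcml, Cxcl13, Mfap5, Dpep1, Cpxm1, Htra3, Prelp and Aqp4, of which Mfap5, Cpxm1, Htra3 and Prelp turned into rises in GKO when barcodes with a high doublet score were removed.

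RNA of other cell types stood beside these results as follows. The 18 immune genes summed to 1001 CPM in 7-gene members against 276 CPM in all noncycling barcodes in WT and 1227 against 504 CPM in GKO, with 13 of 15 genes used past 2-fold higher in each library, 12 of them in both. With the barcodes of high doublet score removed the log2 ratio of the immune sum was 1.23 in WT and −0.47, below the noncycling level, in GKO. Cd74, of antigen presentation, had the most immune UMIs. The median per barcode was 96.4 against 89.2 CPM in WT and 98.6 against 107 CPM in GKO, and 5 barcodes held 72.0% of the immune UMIs in WT and 93.9% in GKO. Without the 4 WT barcodes and 1 GKO barcode that drew 1% or more of their UMIs from other cell types, the sums were 384 and 462 CPM, against 121 and 157 CPM in noncycling barcodes without such barcodes, and the G2 and mitosis list kept log2 ratios between 3.83 and 4.16 in WT and between 3.80 and 4.23 in GKO over that and the other alternatives. Immune UMIs count toward the 1% limit, so that the lower immune sums follow in part from the choice of barcodes. Acinar genes had medians of −1.80 in WT, where 7 of 10 were past 2-fold lower, and −0.28 in GKO. Stellate genes had medians of −1.61 and −2.67 over 7 genes, ductal genes −0.21 and 0.37 over 5, endothelial genes 1.00 and −0.13 over 2, and B and plasma cell genes 0.01 and −2.22 over 2. The sum of Schwann and glial cell genes had log2 ratios of −0.17 in WT and −0.42 in GKO, and no immature granulocyte gene was used, with the list at 2.18 CPM from 10 UMIs in WT and no UMI in GKO, and its defining genes Camp, Mpo and Elane at 0 in both. A second hormone took 10% or more of UMIs in 5 of 104 and 2 of 46 7-gene members. Of these members 10 (9.62%) in WT and 5 (10.9%) in GKO were among the 7.6% of barcodes with the highest doublet score, against 8.27% and 9.12% of noncycling barcodes. Members that need Spc25 had 12.6% and 15.9% there.

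Depth and detected genes also moved with the classes. Insulin-led 7-gene members had medians of 47639 UMIs in WT and 41996 in GKO, above the noncycling medians of 33734 and 32811, and glucagon-led ones 24064 and 20911 against 12108 and 11858. After thinning to 5000 UMIs, insulin-led 7-gene members still showed more genes than noncycling barcodes, 1287 against 1075 in WT and 1350 against 1118 in GKO (unthinned 5270 against 3838 and 5162 against 3931). Members that need Spc25 showed fewer, 1005 and 1022. Against the 10 noncycling barcodes nearest in depth, 646 genes were past 2-fold higher in 7-gene members in both libraries, and 623 were so without matching. The part of depth in these counts was not tested.

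Levels in GKO were compared with WT only within a leading hormone, with the same ratio in noncycling barcodes beside most list sums and some genes. In insulin-led 7-gene members (79 WT, 23 GKO), 202 of 6688 genes (3.02%) were past 2-fold higher in GKO and 61 (0.912%) past 2-fold lower. Both division lists had nearly equal sums in both libraries. The G2 and mitosis sum went from 4025 CPM in the WT library to 4060.5 CPM in the GKO library (log2 ratio 0.01, −0.04 to 0.06), the S phase sum had −0.08 (−0.16 to 0.00), and noncycling barcodes had 0.13 in both lists. Genes of folding in the endoplasmic reticulum had 0.26, against 0.27 in noncycling barcodes. The largest rises included Cxcl2, Apoe, Lyz2 and Atf3. Cxcl2 and Lyz2, known from macrophages, were detected in 5 and 7 of 23 GKO barcodes, and Apoe, a lipoprotein gene that macrophages express strongly, stood at 112 CPM in 36 of 79 WT barcodes and 729.6 CPM in 17 of 23 GKO barcodes. Immune genes summed to 969 and 1722 CPM in the same members (log2 ratio 0.83, against 0.71 in noncycling barcodes). Endothelial genes went from 186 CPM in the WT library to 20.8 CPM in the GKO library (log2 ratio −3.16, against −0.85 in noncycling barcodes). Stellate genes went from 138 to 29.7 CPM (−2.21 against 0.90) and δ identity genes from 401 to 877 CPM (1.13 against 0.27). The part of this RNA in the differences between the libraries was not tested. The named falls, chosen by size without the 2-fold limit, were Mt2, Pde5a, Ttr, Ctrb1 and Sh3pxd2a, and Ctrb1 did not pass it. Mt2, a metallothionein gene, had −1.20 in these members and −1.22 in noncycling barcodes, and Ctrb1, an acinar gene, −0.89 and −3.32.

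Glucagon-led 7-gene members (13 WT, 11 GKO) had more mitotic RNA in WT and more S phase RNA in GKO. Of 2662 genes used, 70 (2.63%) were past 2-fold higher in GKO and 98 (3.68%) past 2-fold lower, and 10 of 56 G2 and mitosis genes were among the latter and 5 of 30 S phase genes among the former. Their G2 and mitosis genes summed to 12585 CPM in the WT library and to 8479 CPM in the GKO library (log2 ratio −0.57, −0.65 to −0.49), and the S phase sum 2866 and 4316 CPM (0.59, 0.46 to 0.72), against 0.13 and 0.15 in noncycling barcodes. Per barcode, the S phase list ran from 566 through 2220.2 to 7542 CPM (lowest, median, highest) in WT and from 514 through 4865 to 8501 CPM in GKO, so that the libraries overlapped. The falls were Lockd, Cdc20, Wnk3, Cenpe and Cenpf, of which Cenpf is a rule gene and helped to choose these members. Cdc20, the activator of the anaphase-promoting complex, stood at 332 CPM in 12 of 13 WT barcodes and 121 CPM in 6 of 11 GKO barcodes. The rises were Hspb1, Irx2, Aard, Hist1h1b and Rnf187. Hist1h1b, the S phase linker histone gene, stood at 90.8 and 209 CPM, in 8 barcodes of each library. Genes of folding in the endoplasmic reticulum had −0.63 against 0.03 in noncycling barcodes. Acinar genes had 1.40 against −1.23, and their part was not tested. With 13 and 11 barcodes, from 1 pool each, the mix of phases caught and genotype cannot be told apart.

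Over all insulin-led members of the rule (728 WT, 229 GKO), 141 of 11573 genes (1.22%) were past 2-fold higher in GKO and 108 (0.933%) past 2-fold lower. The named falls, chosen by size without the 2-fold limit, were Mt1, Sh3pxd2a, Hspb1, Mdm1 and Rgs2, and Hspb1 and Rgs2 did not pass it. Mt1, a metallothionein gene, had −1.04 against −1.27, and Rgs2, a regulator of G protein signaling, −0.70 against −0.76. Hspb1, a small heat shock protein gene, had −0.97 against −0.21. Among the rises, chosen likewise, Apoe had 2.21 against 0.75 and Pdyn, the prodynorphin gene, 0.85 against 0.33. The antigen presentation genes H2-Ab1, Cd74 and H2-Eb1 had 1.19, 1.11 and 0.93 against 1.06, 0.89 and 0.96. Pdyn and H2-Eb1 did not pass 2-fold. Cd74 turned lower in GKO, to −0.27 with high doublet scores removed and to −0.21 with barcodes of 1% or more UMIs of other cell types removed. The 1% limit counts the UMIs of Cd74 itself. Immune genes summed to 304 and 555 CPM in these insulin-led members (log2 ratio 0.87, against 0.71 in noncycling barcodes). Endothelial genes had −1.24 against −0.85, stellate genes −0.56 against 0.90 and acinar genes −0.89 against −2.60. The part of this RNA in the insulin-led values was not tested. Glucagon-led members (83 WT, 100 GKO) had 171 of 9401 genes (1.82%) past 2-fold higher and 198 (2.11%) past 2-fold lower. Their falls were Cdc20, Lockd, Prc1 and the rule genes Cenpf and Hmmr, of which Cdc20 had 106 of its 107 WT UMIs and all 26 GKO UMIs in the 7-gene members. Their rises Cela1, H2-Ab1, H2-Aa, H2-Eb1 and Cd74 include 4 immune genes, which turned lower in GKO when barcodes with 1% or more UMIs of other cell types were removed. That limit counts the UMIs of Cd74, H2-Aa and H2-Ab1 themselves, so that their turn follows in part from the choice of barcodes. B and plasma cell genes summed to 2.87 CPM in the WT library and 1111 CPM in the GKO library in these members (log2 ratio 8.60, against 0.55 in noncycling barcodes). How many of these members held that RNA is not given, and 8 of all 347 GKO members drew 1% or more of UMIs from other cell types. Acinar genes had 0.79 against −1.23. The part of this RNA in the glucagon-led values was not tested. In members that need Spc25, 119 of 11053 genes (1.08%) were past 2-fold higher and 75 (0.679%) past 2-fold lower in GKO among insulin-led barcodes, and 175 of 8621 (2.03%) and 135 (1.57%) among glucagon-led ones. Their named insulin-led genes, also chosen by size without the 2-fold limit, were Apoe, Cd74, Pdyn, Pde10a and Ckb among the rises. Mt1, Hspb1, Sh3pxd2a, Mdm1 and Rgs2 were among the falls, and 8 of these genes were shared with the whole insulin-led member set. That set is mostly the same barcodes (649 of 728 in WT and 206 of 229 in GKO), so that the overlap is no separate support. The glucagon-led rises were Cela1, H2-Aa, H2-Ab1, Ambp and H2-Eb1 and the falls Ly6h, Crip1, Apoe, Por and Fxyd3, beside a B and plasma cell log2 ratio of 8.81 in the same members, again without a count of the barcodes that held it. Apoe thus stood higher in GKO in insulin-led members that need Spc25 (2.10) and lower in glucagon-led ones (−1.12). The immune sum had log2 ratios of 0.99 in these insulin-led members, against 0.71 in noncycling barcodes, and of 0.34 against 0.28 in the glucagon-led ones. The part of immune RNA in these differences was not tested.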

How the data were processed

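UMI counts per gene and barcode were used as deposited by the authors, who ran Cell Ranger 5.0.1 (per the file headers) on build mm10 (submitters' processing notes); ambient RNA had not been removed from these counts. The members, their 2 classes and the 21 gene lists were chosen with earlier results of these data known. Values were summed per library and hormone and given as counts per 1000000 UMIs (CPM), with exact Poisson intervals for sums and Clopper-Pearson intervals for shares, at 95%. With 1 library per genotype no test was run. Log2 ratios added 0.5 to both UMI numbers, used genes with at least 10 expected UMIs in each library by the mean level of both sides compared, and took the noncycling rate as fixed. Noncycling values were weighted by the UMIs of members of each hormone.

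Named genes were the rule genes, hormones and Ghrl, the listed genes, the 10 largest rises and falls outside the lists by the ratio nearest 0, and the 5 largest between genotypes per hormone among genes of at least 50 CPM, 20 UMIs and 5 members. A few genes that these rules name are not reported here. Barcodes were thinned to 5000 UMIs where stated. Doublets were not removed; a score from simulated doublets marked the top 7.6% of barcodes, and their removal was an alternative. Other alternatives changed the rule's threshold, depth matching, totals, weights, filters and noncycling barcodes. Scripts were tested on simulated data. Tools were Python 3.11.15 with scipy 1.17.1, scikit-learn 1.9.0, numpy 2.4.6, matplotlib 3.10.9 and pandas 2.3.3.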

Additional observations from a re-analysis of the deposited data

Results flagged for a closer look

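In 5 gene lists the 7-gene members stood on opposite sides of the noncycling level in WT and GKO with counting intervals that left out 0 in both libraries, and none of these differences was tested, since each genotype had 1 library. The intervals treat UMIs as independent and leave out the spread among barcodes. How many barcodes carried each sum is not given. The log2 ratio of the δ identity sum was −0.13 in WT and 0.19 in GKO, a difference (GKO minus WT) of 0.321. For endoplasmic reticulum folding genes it was 0.04 and −0.05, a difference of −0.0824. B and plasma cell genes had 1.03 and −0.63 (difference −1.66), endothelial genes 0.84 and −0.74 (−1.58) and ductal genes −0.12 and 0.37 (0.494). Stellate genes also lay on opposite sides, at 0.12 in WT, with an interval that included 0, and −2.92 in GKO.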

How the results depend on the processing

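No paired analysis was possible because each genotype has 1 library. Of 1217 values past 2-fold that were recomputed under the alternatives listed at the start, 1198 kept their sign and 1162 stayed past 2-fold. Of 147 recomputed under alternatives added later, 142 kept their sign, 138 stayed past 2-fold and 5 turned to the opposite sign. The rule without Spc25, that rule after thinning, the members that need Spc25 and a filter on noncycling UMIs alone were alternatives added after seeing the data. The cause of the shifts below was not tested, except where the change of members is itself the alternative.

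The ratio of member shares (GKO to WT, all endocrine barcodes) was 0.574 by the rule as given. It was 0.663 at 3 or more rule UMIs, 0.362 at 10 or more, 0.799 after thinning and 0.686 after thinning without Spc25. For insulin-led barcodes it was 0.509 at 10 or more.

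For all members, the G2 and mitosis sum (log2 ratio 1.54 in WT and 1.48 in GKO) was 2.66 and 3.25 at 10 or more rule UMIs, 4.01 and 4.00 without Spc25, and −0.0872 and −0.0474, the opposite sign, in members that need Spc25. It was 1.62 and 1.57 both with depth-matched noncycling barcodes and with hormones left out of the total, 1.64 and 1.59 with median of ratios scaling, 1.68 and 1.65 with high doublet scores removed, and 1.43 and 1.34 against noncycling barcodes with 0 rule UMIs. In WT it was 1.44 with equal weight per barcode and 1.56 with second-hormone barcodes removed. Genes past 2-fold higher in both libraries numbered 123 at 30 or more expected UMIs, 415 with no filter, 86 with 10 UMIs expected from noncycling barcodes alone, 623 without Spc25 and 8 in members that need Spc25. Genes past 2-fold lower numbered 27 at 10 or more rule UMIs, 76 with equal weight, 19 at 30 or more expected UMIs, 135 with no filter, 293 against noncycling barcodes with 0 rule UMIs and 13 without Spc25. For 7-gene members the higher genes ranged from 274 to 1234 and the lower ones from 3 to 69.

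With high doublet scores removed, Mfap5 (0.38), Cpxm1 (0.14), Htra3 (1.96) and Prelp (0.51) turned higher in GKO members. In 7-gene members Bgn turned higher in WT (1.09), and C3 (0.0508) turned higher and the immune sum (−0.47) lower in GKO. C3 had 0.18 with other-cell barcodes removed.

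Between genotypes, the insulin-led G2 and mitosis sum of all members (−0.09) was 0.49 at 10 or more rule UMIs, −0.15 with hormones left out and with median of ratios scaling, −0.0435 with equal weight, −0.14 with second-hormone barcodes removed, 0.0127 without Spc25 and 0.16 in members that need Spc25. Cd74 turned lower with high doublet scores (−0.27) or other-cell barcodes (−0.21) removed. The glucagon-led sum (−0.89) was −0.64 at 10 or more rule UMIs, −0.57 without Spc25 and 0.14 in members that need Spc25. Glucagon-led H2-Ab1 had −0.22 at 10 or more rule UMIs, −0.47 with high doublet scores removed, −0.55 with other-cell barcodes removed and −1.02 without Spc25. H2-Aa had −0.22, −0.39, −0.26 and −1.75 under the same alternatives. H2-Eb1 had −0.71 with other-cell barcodes removed and −0.66 without Spc25, and Cd74 −1.66 with high doublet scores removed and −1.11 with other-cell barcodes removed. The choice of other-cell barcodes counts the UMIs of Cd74, H2-Aa and H2-Ab1 themselves.

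Somatostatin-led and pancreatic polypeptide-led 7-gene members rest on 5 to 7 barcodes a library. Shares also depend on which cells survived sorting.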
